A study of Mus musculus with 2 samples.

Results

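Otp, Uncx, Pou3f1, Pou3f2, Pou3f3 and Pou3f4 encode transcription factors of the developing hypothalamus. They were picked by name as 6 of the 24905 gene rows of the merged count table, and all 6 rows were found. Single cells of the newborn mouse hypothalamus were profiled by Drop-seq, which catches the RNA of each cell on a barcoded bead and counts captured molecules by unique molecular identifiers (UMIs). One library came from Sim1 heterozygous pups (Sim1Het, genotype Sim1-Cre;tdTomato+/-;Sim1+/-) and 1 from control pups (Sim1-Cre;tdTomato+/-). Both groups were CD-1 mice of postnatal day 1 to 4 and carried the same Cre transgene and reporter. Each library is a pool of 6 pups by the series' design text, while the extraction protocol gives 5 to 6 animals, and the labels do not state how ages and sexes were mixed within a pool. The Cre recombinase was driven by the Sim1 regulatory sequence and switches on the Ai14 tdTomato reporter for good in every cell whose lineage once expressed it. Only live tdTomato-positive cells were sorted, so hypothalamic cells outside this lineage were not sought. Since each genotype is a single library, there is no replicate, no test between genotypes and no estimate of the spread between pups. All intervals below are 95% intervals that cover counting error only.

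Otp, the orthopedia homeobox factor, is required in mice for the neuroendocrine neurons of the paraventricular and supraoptic nuclei that make oxytocin (Oxt), vasopressin (Avp), corticotropin-releasing hormone (Crh), thyrotropin-releasing hormone (Trh) and somatostatin (Sst). It acts in parallel with Sim1 and its partner Arnt2, and the POU factor Pou3f2 (Brn2) acts downstream of these for the Oxt, Avp and Crh neurons. Uncx, also called Uncx4.1, is a paired-type homeobox factor of the trunk mesoderm and of parts of the diencephalon. Pou3f1, Pou3f3 and Pou3f4 are paralogs of Pou3f2 that share its POU domain and bind octamer-like sites. Foxb1 is a forkhead factor of the mammillary body, the caudal hypothalamic nucleus that also lies in the Sim1 lineage.

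In the mm10 build, the mouse genome to which the reads were aligned per the submitters' processing notes, the GENCODE M21 annotation places Otp on chromosome 13 from 94875602 to 94885130 on the plus strand and Uncx on chromosome 5 from 139543494 to 139548179 on the plus strand. Pou3f1 lies on chromosome 4 from 124656807 to 124660655 on the plus strand, and Pou3f2 on chromosome 4 from 22482780 to 22488366 on the minus strand. Pou3f3 lies on chromosome 1 from 42695768 to 42703176 and Pou3f4 on chromosome X from 110814280 to 110817207, both on the plus strand. The antisense gene Gm2164 overlaps Pou3f1 and the sense transcript AC122898.1 overlaps Pou3f3. Neither is a row of the table, and the labels do not state whether counting used strand, so UMIs of Pou3f1 and Pou3f3 may include reads of those transcripts.

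Promoters from RefSeq (build GRCm38.p6; 250 bases before and 50 after the RefSeq transcription start) matched 5 of the 6 genes, with Pou3f1 not matched. The promoters of Otp, Uncx and Pou3f2 are shown because these genes give the main differences between cell classes and between libraries. They are written 5′ to 3′ on the strand of the gene, and capitals mark matches on either strand to TAAT, the homeodomain core, or to ACGTG, the core read by dimers of SIM and ARNT factors.
Otp, chr13:94875386-94875685, plus strand: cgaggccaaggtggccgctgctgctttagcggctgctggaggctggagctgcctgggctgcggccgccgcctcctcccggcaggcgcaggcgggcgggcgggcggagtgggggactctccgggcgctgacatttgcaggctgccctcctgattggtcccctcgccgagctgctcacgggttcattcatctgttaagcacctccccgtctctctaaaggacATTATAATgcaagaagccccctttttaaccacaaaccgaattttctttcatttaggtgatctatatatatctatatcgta
Uncx, chr5:139543648-139543947, plus strand: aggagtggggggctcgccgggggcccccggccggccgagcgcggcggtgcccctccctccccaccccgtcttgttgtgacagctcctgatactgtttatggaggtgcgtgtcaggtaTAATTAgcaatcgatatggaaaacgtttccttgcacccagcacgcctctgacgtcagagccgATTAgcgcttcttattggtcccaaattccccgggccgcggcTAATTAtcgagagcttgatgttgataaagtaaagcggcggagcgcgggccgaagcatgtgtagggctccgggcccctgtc
Pou3f2, chr4:22488317-22488616, minus strand: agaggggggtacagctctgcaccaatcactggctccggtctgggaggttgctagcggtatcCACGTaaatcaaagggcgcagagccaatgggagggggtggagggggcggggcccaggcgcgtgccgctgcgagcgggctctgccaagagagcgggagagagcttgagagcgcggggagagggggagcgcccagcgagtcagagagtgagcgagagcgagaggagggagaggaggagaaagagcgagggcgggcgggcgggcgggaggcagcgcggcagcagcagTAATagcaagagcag
TAAT had 2 matches in the Otp window, 5 in the Uncx window and 1 each in those of Pou3f2, Pou3f3 and Pou3f4, some of them overlapping, as in the capitals TAATTA. A match is common, since 58.0% of 32851 RefSeq promoters of this length hold TAAT. ACGTG was found once, in the Pou3f2 window (capitals CACGT), and 19.6% of all promoters hold it. The octamer ATGCAAAT was in none of the 5 windows and is in 1.74% of promoters. These matches describe letters in the window and say nothing of binding.

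After cells with under 300 genes were left out, 2454 Sim1 heterozygous and 2806 control cells remained, with a median of 1583 UMIs (Sim1Het) and 1772.5 UMIs (control) per cell and totals of 5390356 UMIs (Sim1Het) and 6524704 UMIs (control). No barcode was shared between the libraries. Doublets were not called and were left in. The Sim1 level was 91.6 UMIs per 1000000 UMIs (CPM) in the Sim1 heterozygous library and 112 CPM in the control library, a log2 ratio of -0.29 (interval -0.46 to -0.13). The deleted part of Sim1 is not given and only transcript 3′ ends are read, so this ratio does not check the genotype. Growth hormone (Gh), a pituitary product, had 0 UMIs in the Foxb1-gated cells of the Sim1 heterozygous library and 467 in those of the control library.

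Cells were sorted into gates by the UMIs of 8 marker genes, none of them among the 6 factors. The minimum was 10 UMIs for Oxt, Avp and Pmch (the precursor of melanin-concentrating hormone), 3 for Crh, Trh, Sst and Ghrh (growth hormone-releasing hormone) and 2 for Foxb1. Cells with at least 10 Avp and under 10 Oxt UMIs are called Avp cells. Glia-gated cells were taken out first. All other cells are called neuronal, without a neuronal marker being required, and those in no gate are called ungated. Ungated cells held 9 (Sim1Het) and 82 (control) UMIs of microglial markers, in 4 and 8 cells. Fibroblast markers had 10 (Sim1Het) and 141 (control) UMIs there, in 9 and 18 cells, and endothelial markers 4 and 73, in 4 and 6 cells. A few ungated cells, mostly control, may thus not be neurons. The Sim1 heterozygous library gave 10 Oxt, 18 Avp, 35 Crh, 33 Trh, 60 Sst, 9 Pmch, 2 Ghrh and 871 Foxb1 cells, against 69, 61, 33, 43, 75, 28, 14 and 657 in the control library. Median depth was 4817.5 (Sim1Het) and 3291 (control) UMIs in the Oxt gate, 1852.5 (Sim1Het) and 1629 (control) in the Avp gate, 1840 (Sim1Het) and 2607 (control) in the Crh gate and 2098 (Sim1Het) and 1836 (control) in the Foxb1 gate. Because depth differs, shares of cells with a UMI are also given after each cell was thinned to 857 UMIs, which leaves out 613 Sim1 heterozygous and 156 control cells. Gates and Foxb1 counts were taken from unthinned cells throughout. Levels are CPM over the summed UMIs of a gate, and levels of different genes are not compared, since only 3′ ends are counted. The plot of gate shares shows all 6 genes in every gate.

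**Figure D1:**
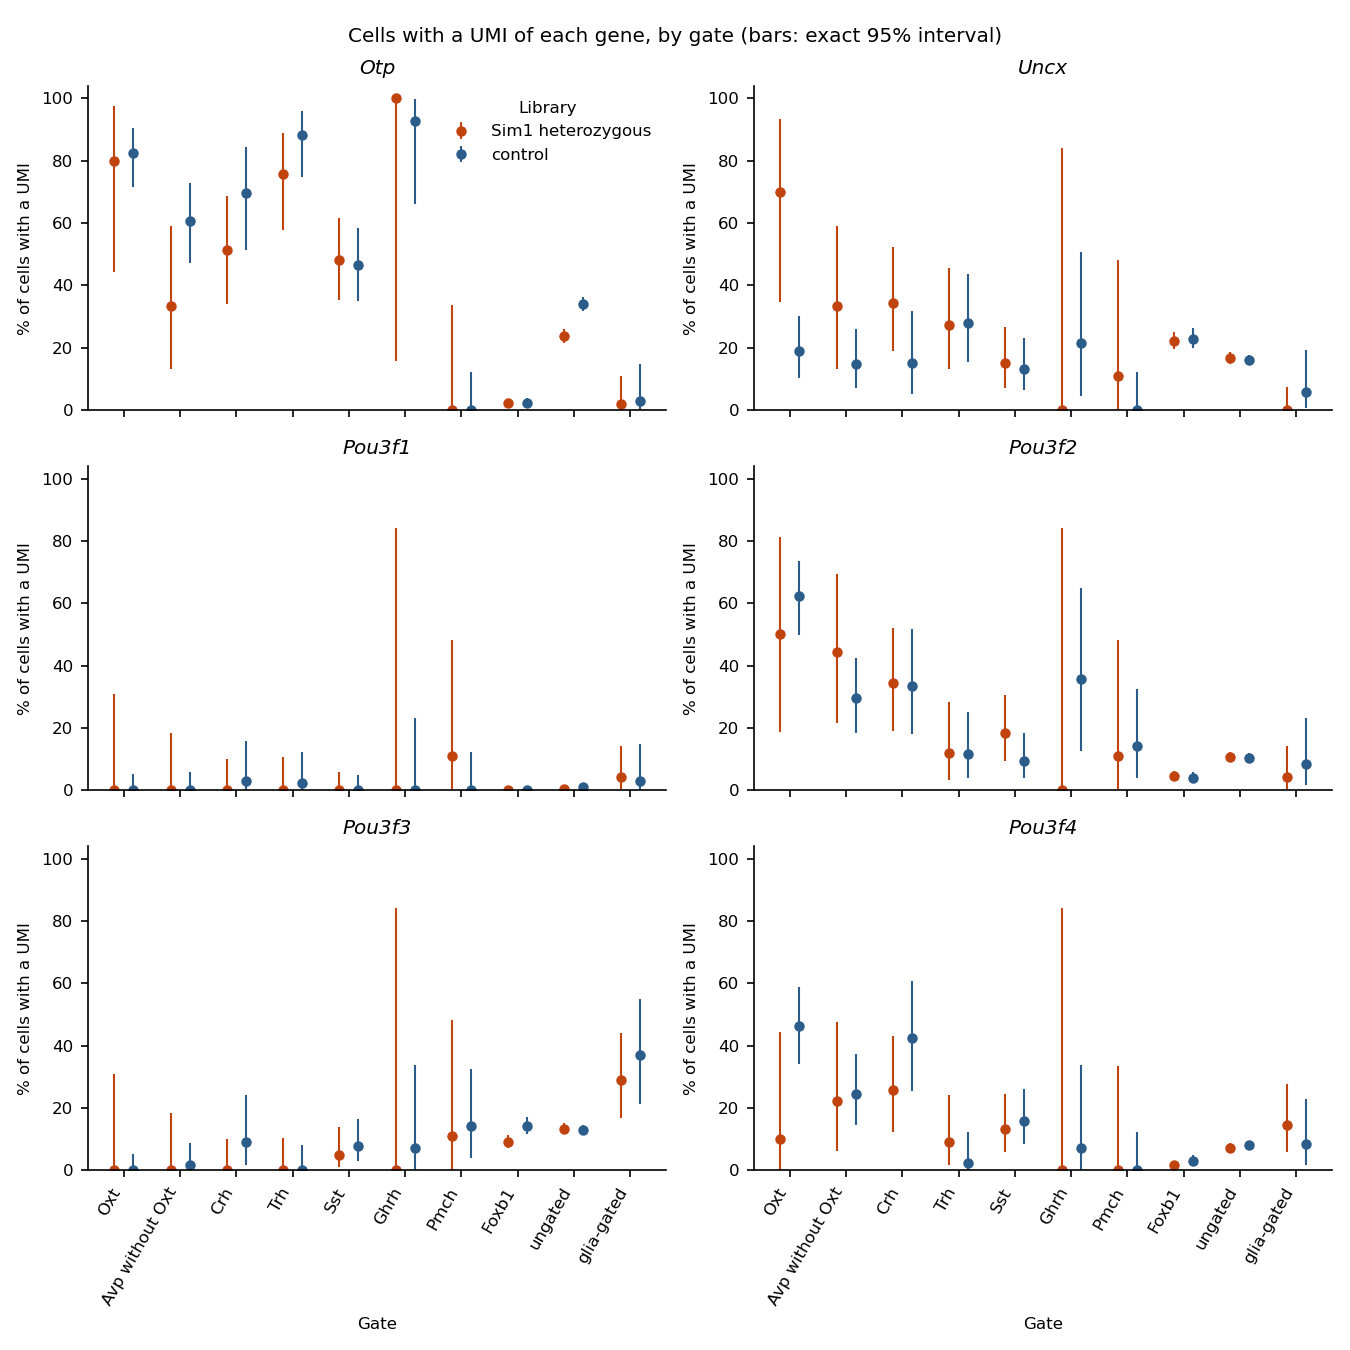
Percent of cells with at least 1 UMI (vertical axis) of each gene in each gate (horizontal axis), for the Sim1 heterozygous (left of each pair) and control library, with exact Clopper-Pearson 95% intervals. Otp was found in 80% (Sim1Het) and 82.6% (control) of Oxt cells but in 2.30% (Sim1Het) and 2.44% (control) of Foxb1 cells, while Uncx was found in 22.3% (Sim1Het) and 23.0% (control) of Foxb1 cells.

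Otp was found in Oxt, Avp, Crh, Trh, Sst and Ghrh neurons of both libraries and was rare in Foxb1 neurons. In the Oxt gate it was found in 8 of 10 Sim1 heterozygous cells and in 57 of 69 control cells, at 454 CPM (21 UMIs) and 679 CPM (170 UMIs). In the Trh gate it was found in 75.8% (Sim1Het) and 88.4% (control) of cells, at 732 (Sim1Het) and 727 CPM (control). In the Sst gate the shares were 48.3% (Sim1Het) and 46.7% (control), at 482 (Sim1Het) and 403 CPM (control). In the Crh gate they were 51.4% (Sim1Het) and 69.7% (control), at 564 (Sim1Het) and 545 CPM (control). Thinned, the Oxt shares were 20% (Sim1Het) and 44.9% (control) and the Trh shares 37.5% (Sim1Het) and 51.2% (control), so the order of these gates within a library is not read from unthinned shares. Both Ghrh cells of the Sim1 heterozygous library and 13 of 14 control Ghrh cells had an Otp UMI. These gates overlap, since both Sim1 heterozygous Ghrh cells are also Trh cells, and of the control Ghrh cells 6 are also Trh cells, 4 Oxt cells and 2 Avp cells.

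Among gates with at least 10 cells in each library, Avp cells gave the widest gap for Otp. The gene was found in 6 of 18 Sim1 heterozygous Avp cells (33.3%, exact Clopper-Pearson interval 13.3 to 59.0%) and in 37 of 61 control Avp cells (60.7%, 47.3 to 72.9%). The levels were 324 CPM (Sim1Het, 10 UMIs) and 844 CPM (control, 98 UMIs), a log2 ratio of -1.26 (interval -2.48 to -0.44). Thinned, 15.4% (Sim1Het) and 45.9% (control) of Avp cells kept an Otp UMI. As background, 11.3% of the 940 genes tested in Avp cells were at least 1.5-fold lower in the Sim1 heterozygous library. Over the other hormone gates the Otp ratio had intervals that held 0, namely -0.52 (-1.31 to 0.08) in Oxt, 0.05 (-0.53 to 0.63) in Crh, 0.01 (-0.39 to 0.41) in Trh and 0.25 (-0.19 to 0.70) in Sst cells.

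Pmch neurons of the lateral hypothalamus gave no Otp UMI in either library. Otp was found in 0 of 9 Sim1 heterozygous Pmch cells, which allows a share of up to 33.3% by the floor of 3 counts over the cells, and in 0 of 28 control Pmch cells, which by the same floor allows up to 10.7%. The exact Clopper-Pearson upper bounds are 33.6% (Sim1Het) and 12.3% (control). Set against a floor of 3 UMIs per gate, the Otp level was at least 2.80-fold lower than in ungated cells in the Sim1 heterozygous library and at least 16.5-fold lower in the control library. The share of all tested genes at least 2-fold lower in Pmch cells than in ungated cells was 3.04% (Sim1Het) and 6.79% (control).

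Foxb1 cells were nearly free of Otp in both libraries. Otp UMIs were found in 20 of 871 Sim1 heterozygous Foxb1 cells (2.30%, 1.41 to 3.52%) and in 16 of 657 control Foxb1 cells (2.44%, 1.40 to 3.92%). The levels were 21.1 (Sim1Het) and 19.9 CPM (control), against 342 (Sim1Het) and 427 CPM (control) in the ungated cells of the same libraries. The log2 fold of Foxb1 over ungated cells was -3.99 (Sim1Het, -4.47 to -3.59) and -4.38 (control, -5.01 to -3.90). Glia-gated cells, which should lack Otp, had a UMI in 1 of 48 Sim1 heterozygous and 1 of 35 control cells (2.08% and 2.86%) at a lower median depth of 866 and 1260 UMIs. With 1 such cell per library, this background is too coarse to place the share in Foxb1 cells above or below it. Of the Otp UMIs in Foxb1 cells, 33 of 47 (Sim1Het) and 17 of 29 (control) came from 6 (Sim1Het) and 4 (control) cells with at least 2 Otp UMIs. Those cells had a median of 8634.5 UMIs in the Sim1 heterozygous library and 2922.5 UMIs in the control library, above the medians of the gate. Whether they are doublets was not tested.

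The exclusion was read from both sides of the same cells, so the second reading is no separate support for the first. Among neuronal cells, 31.4% of Sim1 heterozygous and 41.6% of control cells with 0 Foxb1 UMIs had an Otp UMI, against the 2.30% and 2.44% of cells with at least 2 Foxb1 UMIs. With Otp thinned to equal depth and the Foxb1 counts left unthinned, the shares were 23.3% (Sim1Het) and 30.1% (control) without Foxb1. In Foxb1 cells they were 0.522% (Sim1Het) and 0.966% (control). Of cells with at least 2 Otp UMIs, 20 of 252 (Sim1Het, 7.94%) and 16 of 519 (control, 3.08%) had any Foxb1 UMI, against 57.4% (Sim1Het) and 44.5% (control) of cells with no Otp UMI.

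Of the 5 factors with at least 30 UMIs over the Foxb1 and ungated cells of the Sim1 heterozygous library, 4 were at least 2-fold lower in its Foxb1 cells than in its ungated cells, where 3.06% of all tested genes were. They were Otp, Pou3f4 (log2 fold -2.56), Pou3f2 (-1.85) and Pou3f3 (-1.11). In the control library 3 of 5 were, where 3.31% of tested genes were, namely Otp, Pou3f2 (-1.68) and Pou3f4 (-1.49). Pou3f1, with 28 UMIs in ungated and 1 in Foxb1 control cells, was under that minimum. Pou3f3 was not among them in the control library, at 0.17 (-0.14 to 0.46).

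Uncx had a different distribution, being present in Foxb1 cells of both libraries. It was found in 194 of 871 Sim1 heterozygous Foxb1 cells (22.3%) and 151 of 657 control Foxb1 cells (23.0%), at 134 and 151 CPM. The ungated cells had 16.7% (Sim1Het) and 16.1% (control), at 121 CPM (Sim1Het) and 101 CPM (control). Thinned, the Foxb1 shares were 9.65% (Sim1Het) and 10.95% (control) and the ungated shares 9.61% (Sim1Het) and 7.92% (control). The log2 fold over ungated cells was 0.14 (-0.09 to 0.37) in the Sim1 heterozygous library and 0.58 (0.33 to 0.82) in the control library, where it was 0.14 (-0.18 to 0.43) with gate minimums doubled. Foxb1 cells held 44.0% of Uncx UMIs of the Sim1 heterozygous library and 31.8% of those of the control library, and 3.89% (Sim1Het) and 1.27% (control) of Otp UMIs. Glia-gated cells had an Uncx UMI in 0 of 48 (Sim1Het) and 2 of 35 (control) cells.

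Unthinned, cells high in Uncx leaned towards Foxb1. Of neuronal cells with at least 2 Uncx UMIs, 80 of 129 in the Sim1 heterozygous library (62.0%, 53.1 to 70.4%) and 65 of 133 in the control library (48.9%, 40.1 to 57.7%) had a Foxb1 UMI. Of cells with no Uncx UMI, 47.4% (Sim1Het) and 30.8% (control) had one. With Uncx thinned, the count of such high cells fell to 18 (Sim1Het) and 29 (control), of which 8 (Sim1Het) and 14 (control) had a Foxb1 UMI. Of cells without Uncx, 52.3% (Sim1Het) and 31.8% (control) had one. The intervals of the high cells, 21.5 to 69.2% (Sim1Het) and 29.4 to 67.5% (control), hold these shares. No lean was thus detectable at that depth in either library.

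In Oxt and Crh cells Uncx was higher in the Sim1 heterozygous library, and in Avp cells its ratio was also above 0 with an interval that held 0. In the Oxt gate the 10 Sim1 heterozygous cells carried 3, 3, 2, 2, 1, 1, 1, 0, 0 and 0 Uncx UMIs, so 7 of 10 had at least 1 (70%, 34.8 to 93.3%). In the 69 control Oxt cells the lowest, median and highest were 0, 0 and 3 UMIs and 13 had at least 1 (18.8%, 10.4 to 30.1%). The ranges of the cells overlap, and the intervals of these unthinned shares do not. Median depth in this gate was 4817.5 (Sim1Het) and 3291 (control) UMIs, and depth was not evened out for these shares. For hormone cells, thinned Uncx shares are given below for the union of these gates alone, where the exact intervals overlap. The level was 281 CPM (Sim1Het, 13 UMIs) and 67.9 CPM (control, 17 UMIs), a log2 ratio of 2.07 (0.88 to 3.18). In the Avp gate it was 227 CPM (Sim1Het, 7 UMIs) and 86.1 CPM (control, 10 UMIs), a ratio of 1.45 (-0.23 to 2.94), and in the Crh gate 176 CPM (Sim1Het, 15 UMIs) and 56.4 CPM (control, 6 UMIs), a ratio of 1.51 (0.20 to 3.30). In the Oxt gate 19.0% and in the Crh gate 14.0% of genes tested were at least 1.5-fold higher, and of these gates Uncx reached the 30 UMIs of a tested gene in the Oxt gate alone.

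The union of these 3 gates was formed after their values were seen. It holds 60 Sim1 heterozygous and 153 control cells, of which 24 and 24 had an Uncx UMI (40%, 27.6 to 53.5%, and 15.7%, 10.3 to 22.4%). The level was 219 CPM (Sim1Het, 34 UMIs) and 66.7 CPM (control, 30 UMIs), a log2 ratio of 1.71 (0.96 to 2.47). Thinned, the shares were 17.3% (Sim1Het, 9 of 52) and 6.54% (control, 10 of 153), with exact intervals that overlap. Among the 3963 genes tested in the union, 15.9% were at least 1.5-fold higher and 9.79% at least 1.5-fold lower in the Sim1 heterozygous library, so a change of that size is common here. Uncx was the 1 factor of the 4 tested that passed 1.5-fold upwards and none passed it downwards. The downward part of this count depends on how the cells are chosen and weighted. Otp was past 1.5-fold lower in 5 of 8 alternatives (down to -0.83 with clusters in place of gates). Pou3f4 was in 3 of 8 (down to -0.76 without the Sim1 heterozygous cell with the most Pou3f4 UMIs). Leaving out the top cell on the Sim1 heterozygous side alone leans a ratio downwards by construction. In Trh cells the Uncx levels were 111 CPM (Sim1Het, 16 UMIs) and 109 CPM (control, 16 UMIs), and in Sst cells 59.5 (Sim1Het) and 56.9 CPM (control).

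Several other measures were taken beside this Uncx difference. Foxb1 UMIs in the union were 2 (Sim1Het) and 18 (control) and Emx2 UMIs were 0 (Sim1Het) and 0 (control). Synpr, which leads the same cluster as Emx2, had 4 (Sim1Het) and 4 (control) UMIs, and Lhx1, a LIM homeobox factor of the mammillary body picked after its values were seen, had 8 (Sim1Het) and 9 (control) UMIs. Over 60 (Sim1Het) and 153 (control) cells, Synpr and Lhx1 were thus higher per cell in the Sim1 heterozygous union, and Foxb1 was lower. The CPM intervals of Lhx1 overlap (22.2 to 101 in Sim1Het, 9.14 to 38.0 in control). Those of Foxb1 overlap too (1.56 to 46.5 in Sim1Het, 23.7 to 63.2 in control). Other mammillary factors ran in both directions on few UMIs, so no common direction is read. Of 12 glial markers, 2 (Sim1Het) and 5 (control) were detected, with 6 (Sim1Het) and 26 (control) UMIs in all. Of 6 markers of the oligodendrocyte lineage, 3 (Sim1Het) and 2 (control) were detected, at 83.7 CPM (Sim1Het, 13 UMIs in 11 cells) and 42.2 CPM (control, 19 UMIs in 15 cells). Of 5 pituitary markers, 1 (Sim1Het) and 3 (control) were detected, with 3 (Sim1Het) and 107 (control) UMIs in 3 of 60 (Sim1Het) and 71 of 153 (control) cells, and Gh had 0 (Sim1Het) and 97 (control) of these. The 3 GABAergic markers were at 0 in both. The Sim1 level in the union was 122 CPM (Sim1Het, 19 UMIs) and 198 CPM (control, 89 UMIs), a log2 ratio of -0.64 (-1.49 to 0.03). The part of these measures in the Uncx difference was not tested.

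Oxt cells of the libraries were not alike in hormone content. The 10 Sim1 heterozygous Oxt cells had a median of 16 Oxt and 642.5 Avp UMIs, against 25 Oxt and 433 Avp UMIs in the control cells, and 8 of 10 and 50 of 69 held at least 100 Avp UMIs. Within those Avp-rich Oxt cells, Uncx was found in 6 of 8 Sim1 heterozygous and 10 of 50 control cells, at 294 and 74.5 CPM. They are most of the gate and held most of its Uncx UMIs, 12 (Sim1Het) and 14 (control). Their gap is thus largely that of the gate itself and no check on hormone content. Fewer cells of a kind and less RNA per cell cannot be told apart from summed counts. The share of cells and the level in CPM run the same way here, but both come from the same few UMIs.

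**Figure D2:**
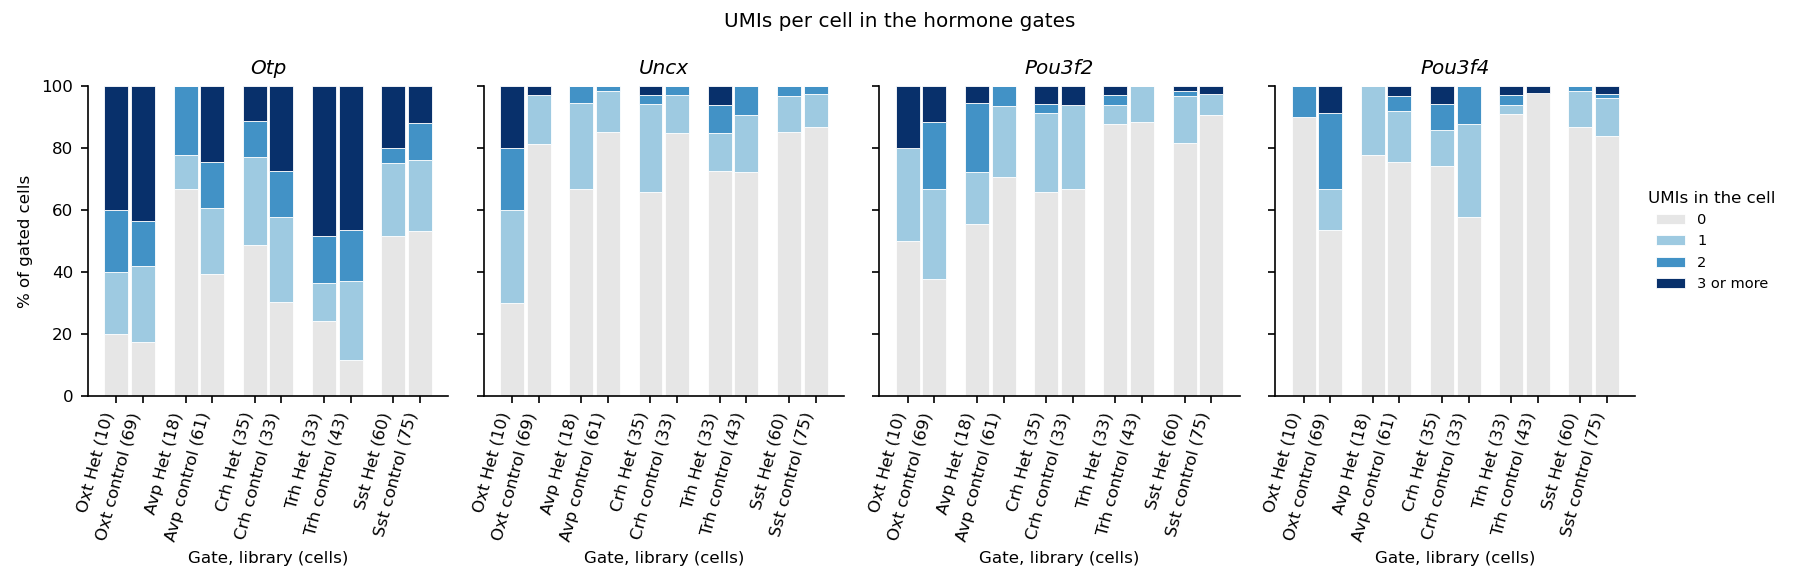
Percent of gated cells (vertical axis) with 0, 1, 2 and 3 or more UMIs of Otp, Uncx, Pou3f2 and Pou3f4 in 5 hormone gates, with the Sim1 heterozygous bar (Het) left of the control bar and the cell number in brackets. In the Oxt gate 3 of 10 Sim1 heterozygous cells lacked Uncx, and in control Avp cells 24 of 61 lacked Otp.

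Pou3f2 and Pou3f4 were raised over ungated cells in the union of the Oxt, Avp and Crh gates of both libraries. There, Pou3f2 was found in 41.7% of Sim1 heterozygous and 44.4% of control cells, at 277 and 251 CPM, against 75.8 and 59.2 CPM in ungated cells. The log2 fold over ungated cells was 1.90 (Sim1Het, 1.36 to 2.35) and 2.09 (control, 1.75 to 2.41). Pou3f4 was found in 23.3% (Sim1Het) and 37.3% (control) of the union, at 148 (Sim1Het) and 220 CPM (control), against 49.9 (Sim1Het) and 47.7 CPM (control) in ungated cells, a log2 fold of 1.62 (Sim1Het, 0.86 to 2.22) and 2.21 (control, 1.84 to 2.56). Both were at least 2-fold higher in the union in both libraries, where 8.5% (Sim1Het) and 5.0% (control) of all tested genes were. Otp was raised less, with a log2 fold of 0.59 (Sim1Het, 0.22 to 0.91) and 0.74 (control, 0.56 to 0.91). Uncx was higher than in ungated cells in the Sim1 heterozygous union, at 0.89 (0.29 to 1.36), and lower in the control union, at -0.56 (-1.19 to -0.06).

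Between libraries the union level of Pou3f2 differed by a log2 ratio of 0.16 (-0.40 to 0.66) and that of Pou3f4 by -0.52 (-1.29 to 0.09), and both intervals hold 0. For Pou3f4 this rests on 1 cell, since without the Sim1 heterozygous cell with the most Pou3f4 UMIs its ratio was -0.76 (-1.61 to -0.10). No control cell was left out there, so that value leans downwards by construction. The single gates were less even. In the Avp gate Pou3f2 had 454 CPM (14 UMIs) in Sim1 heterozygous cells and 189 CPM (22 UMIs) in control cells, a ratio of 1.30 (0.18 to 2.29), where 16.0% of genes tested were at least 1.5-fold higher. In the Oxt gate it had 216 CPM (Sim1Het, 10 UMIs) and 316 CPM (control, 79 UMIs), a ratio of -0.43 (-1.66 to 0.41). Pou3f4 in the Oxt gate was found in 1 of 10 Sim1 heterozygous cells, with 2 UMIs, and in 32 of 69 control cells, with 65 UMIs. The ratio of its levels, 43.2 (Sim1Het) and 260 CPM (control), was -2.02 (-5.66 to -0.68), and 13.7% of genes tested in the Oxt gate were at least 1.5-fold lower. In the Crh gate Pou3f4 had 200 (Sim1Het) and 169 CPM (control), a ratio of 0.24 (-0.81 to 1.28).

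Outside these gates both factors were sparser. Pou3f2 was found in 12.1% (Sim1Het) and 11.6% (control) of Trh cells and in 18.3% (Sim1Het) and 9.33% (control) of Sst cells, and Pou3f4 in 9.09% (Sim1Het) and 2.33% (control) of Trh cells and in 13.3% (Sim1Het) and 16% (control) of Sst cells. The 14 control Ghrh cells had 12 Pou3f2 UMIs in 5 cells, and 4 of those 14 cells are also Oxt cells. Pmch cells gave no Pou3f4 UMI in 9 Sim1 heterozygous and 28 control cells. In Foxb1 cells Pou3f2 was found in 4.71% (Sim1Het) and 3.96% (control) and Pou3f4 in 1.84% (Sim1Het) and 3.20% (control), against 13.1% (Sim1Het) and 13.4% (control) for Pou3f2 and 8.89% (Sim1Het) and 11.1% (control) for Pou3f4 among neuronal cells with no Foxb1 UMI. Glia-gated cells are no clean negative for Pou3f4, which was found in 7 of 48 (Sim1Het) and 3 of 35 (control) of them.

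Pou3f3 ran against the hormone gates. It was found in 0 of 10 Sim1 heterozygous and 0 of 69 control Oxt cells, and in 0 of 33 and 0 of 43 Trh cells. In the union of the Oxt, Avp and Crh gates it was found in 0 of 60 Sim1 heterozygous cells (0 to 5.96%, with 5% by the floor of 3 counts) and in 3 of 153 control cells (1.96%, 0.41 to 5.62%). Set against the floor of 3 UMIs, its union level in the Sim1 heterozygous library was at least 5.52-fold lower than in ungated cells. In the control library the log2 fold was -3.21 (-5.91 to -2.06). The share of tested genes at least 2-fold lower in the union was 9.39% (Sim1Het) and 8.69% (control). In Trh cells Pou3f3 was at least 5.14-fold (Sim1Het) and at least 4.03-fold (control) lower than in ungated cells, where 6.2% (Sim1Het) and 4.96% (control) of tested genes were at least 2-fold lower. Sst and Pmch cells were not free of it, with 3 of 60 (Sim1Het) and 6 of 75 (control) Sst cells and 1 of 9 (Sim1Het) and 4 of 28 (control) Pmch cells.

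Glia-gated cells had the highest gate level of Pou3f3, at 315 CPM (Sim1Het, 14 of 48 cells) and 342 CPM (control, 13 of 35 cells), so for this gene the glia gate is no negative. In Foxb1 cells Pou3f3 was found in 80 of 871 Sim1 heterozygous cells (9.18%, 7.35 to 11.3%) and in 93 of 657 control cells (14.2%, 11.6 to 17.1%). The levels were 49.0 CPM (Sim1Het, 109 UMIs) and 91.8 CPM (control, 134 UMIs), a log2 ratio of -0.90 (-1.28 to -0.53). In ungated cells the ratio ran the other way, at 107 (Sim1Het) and 82.0 CPM (control), 0.38 (0.14 to 0.61). In Foxb1 cells 8.7% of the genes tested were at least 1.5-fold higher and 7.77% at least 1.5-fold lower, and Pou3f3 and Pou3f4 (8.10 CPM in Sim1Het and 16.4 CPM in control cells, a ratio of -1.003 with an interval of -1.99 to -0.08) were the 2 factors among them.

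The makeup of the Foxb1 gate differed between the libraries. Cells of the cluster led by Emx2 and Synpr made up 11.5% of Sim1 heterozygous Foxb1 cells (100 cells) and 25.1% of control Foxb1 cells (165 cells). Inside that cluster, Foxb1 cells had 136 (Sim1Het) and 155 CPM (control) of Pou3f3, a log2 ratio of -0.18 (-0.77 to 0.38). Outside it, the 771 (Sim1Het) and 492 (control) Foxb1 cells had 34.2 (Sim1Het) and 65.7 CPM (control), a ratio of -0.94 (-1.45 to -0.43). The difference was thus as large without that cluster, but the makeup of the remaining Foxb1 cells was not evened out. Over all cells of the cluster led by Foxb1 and Dgkb the Pou3f3 ratio was -0.36 (-1.35 to 0.82). In the cluster led by Nts and Rprm it was -0.14 (-0.99 to 0.78). The part of cell makeup in the difference was not tested.

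Pou3f1 was rare. It had 15 UMIs in 11 Sim1 heterozygous cells and 34 UMIs in 23 control cells, and no UMI in Oxt, Avp or Sst cells of either library. Of its cells, 5 of 11 (Sim1Het) and 10 of 23 (control) lay in the cluster led by Nrgn and Calb2. Its library ratio of -0.85 (-1.89 to 0.01) held 0, and at this depth no statement on its distribution among hormone cells can be made.

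Over all cells kept, the Otp level was 224 CPM (1208 UMIs) in the Sim1 heterozygous library and 349 CPM (2279 UMIs) in the control library, a log2 ratio of -0.64 (-0.74 to -0.54). Of 14600 genes tested, 9.27% were at least 1.5-fold lower and 7.82% at least 1.5-fold higher, and 2 of the 6 factors passed that fold, Otp and Pou3f1, both lower. Pou3f4 was at 36.5 (Sim1Het) and 51.6 CPM (control), -0.50 (-0.76 to -0.24), and Uncx at 126 (Sim1Het) and 106 CPM (control), 0.25 (0.09 to 0.40). Pou3f2 was at 58.1 (Sim1Het) and 62.8 CPM (control), -0.11 (-0.33 to 0.10), and Pou3f3 at 76.8 (Sim1Het) and 77.2 CPM (control), -0.01 (-0.20 to 0.18). Cell makeup moves with these ratios, since Foxb1 cells were 35.5% of Sim1 heterozygous and 23.4% of control cells. Outside the Foxb1 and glia gates the Otp ratio was -0.27 (-0.37 to -0.17), which is under 1.5-fold, and that of Pou3f4 was -0.19 (-0.47 to 0.09). The plot of library ratios sets these classes side by side. Ungated cells hold most Otp UMIs, 74.3% (Sim1Het) and 77.0% (control). There 23.7% (Sim1Het) and 34.0% (control) of cells had Otp, at 342 (Sim1Het) and 427 CPM (control), a ratio of -0.32 (-0.44 to -0.20). These shares are unthinned, at a median depth of 1208.5 (Sim1Het) and 1686 (control) UMIs. The part of depth in their gap was not tested. Of the genes tested in ungated cells, 8.25% were at least 1.5-fold higher and 8.76% at least 1.5-fold lower, and Pou3f1 (9 UMIs in Sim1Het, 28 in control) was the 1 factor of the 6 past that fold.

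**Figure D3:**
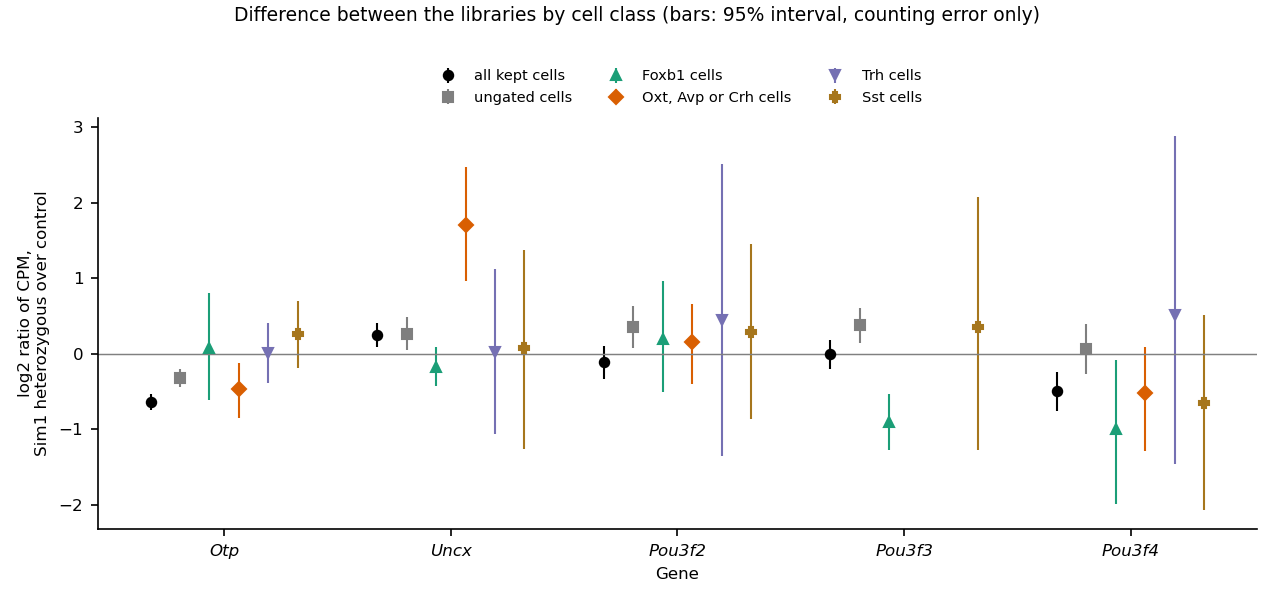
Log2 ratio of CPM, Sim1 heterozygous over control (vertical axis), of 5 factors in 6 cell classes, with exact conditional 95% intervals for counting error only. Uncx stands at 1.71 in Oxt, Avp or Crh cells and between -0.17 and 0.27 in all kept, ungated, Foxb1, Trh and Sst cells, and Pou3f3 stands at -0.90 in Foxb1 cells and 0.38 in ungated cells.

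The cells were also clustered without the 6 genes, and the order of clusters by level is a description. Otp was highest in the cluster led by Zic1 and Zic4, at 969 CPM in Sim1 heterozygous and 1034 CPM in control cells, and 75.7% and 79.2% of its cells had a UMI. That cluster has 136 Sim1Het and 307 control cells and stood apart from the next in both libraries. In the Sim1 heterozygous library the clusters led by Sst and Asb4 (586 CPM), Avp and Oxt (465 CPM) and Penk and Lmo4 (430 CPM) followed, and in the control library those led by Avp and Oxt (782 CPM), Crh and Dlk1 (632 CPM) and Sst and Asb4 (571 CPM). Otp was lowest in the clusters led by Foxb1 and Dgkb, Nts and Rprm, Emx2 and Synpr, and Nefm and Tac2. Uncx was highest in the Emx2 and Synpr cluster, at 333 (Sim1Het) and 315 CPM (control), in 40.4% (Sim1Het) and 40% (control) of its cells. In the Sim1 heterozygous library the clusters led by Avp and Oxt (276 CPM) and by Crh and Dlk1 (271 CPM) came next, with intervals that overlap it. In the control library these had 74.9 and 39.5 CPM, and the second of them ranked 13 of 14. The log2 ratios for Uncx were 1.90 (0.94 to 2.80) in the Avp and Oxt cluster and 2.51 (1.25 to 4.76) in the Crh and Dlk1 cluster.

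Pou3f2 was highest in the Avp and Oxt cluster, at 349 (Sim1Het) and 315 CPM (control), and Pou3f4 in the Crh and Dlk1 cluster, at 282 (Sim1Het) and 237 CPM (control). In the Avp and Oxt cluster Pou3f4 had 87.1 (Sim1Het) and 234 CPM (control), a ratio of -1.22 (-2.91 to -0.24). Pou3f3 was highest in the cluster led by Nefm and Tac2, at 492 (Sim1Het) and 372 CPM (control), with 71.2% (Sim1Het) and 49.1% (control) of its cells. The clusters led by Apoe and Fabp7 (257 CPM in Sim1Het, 196 CPM in control) and by Emx2 and Synpr (166 CPM in Sim1Het, 199 CPM in control) followed. Pou3f3 gave no UMI in the Sim1 heterozygous cells of the Avp and Oxt and the Crh and Dlk1 clusters. Otp was lower in the Sim1 heterozygous library in 10 of 14 clusters, with intervals off 0 in 4 of them, those led by Avp and Oxt (-0.71), Crh and Dlk1 (-0.72), Kcnq1ot1 and Malat1 (-0.83) and Gad2 and Slc32a1 (-1.84, on 1 Sim1 heterozygous UMI).

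**Figure D4:**
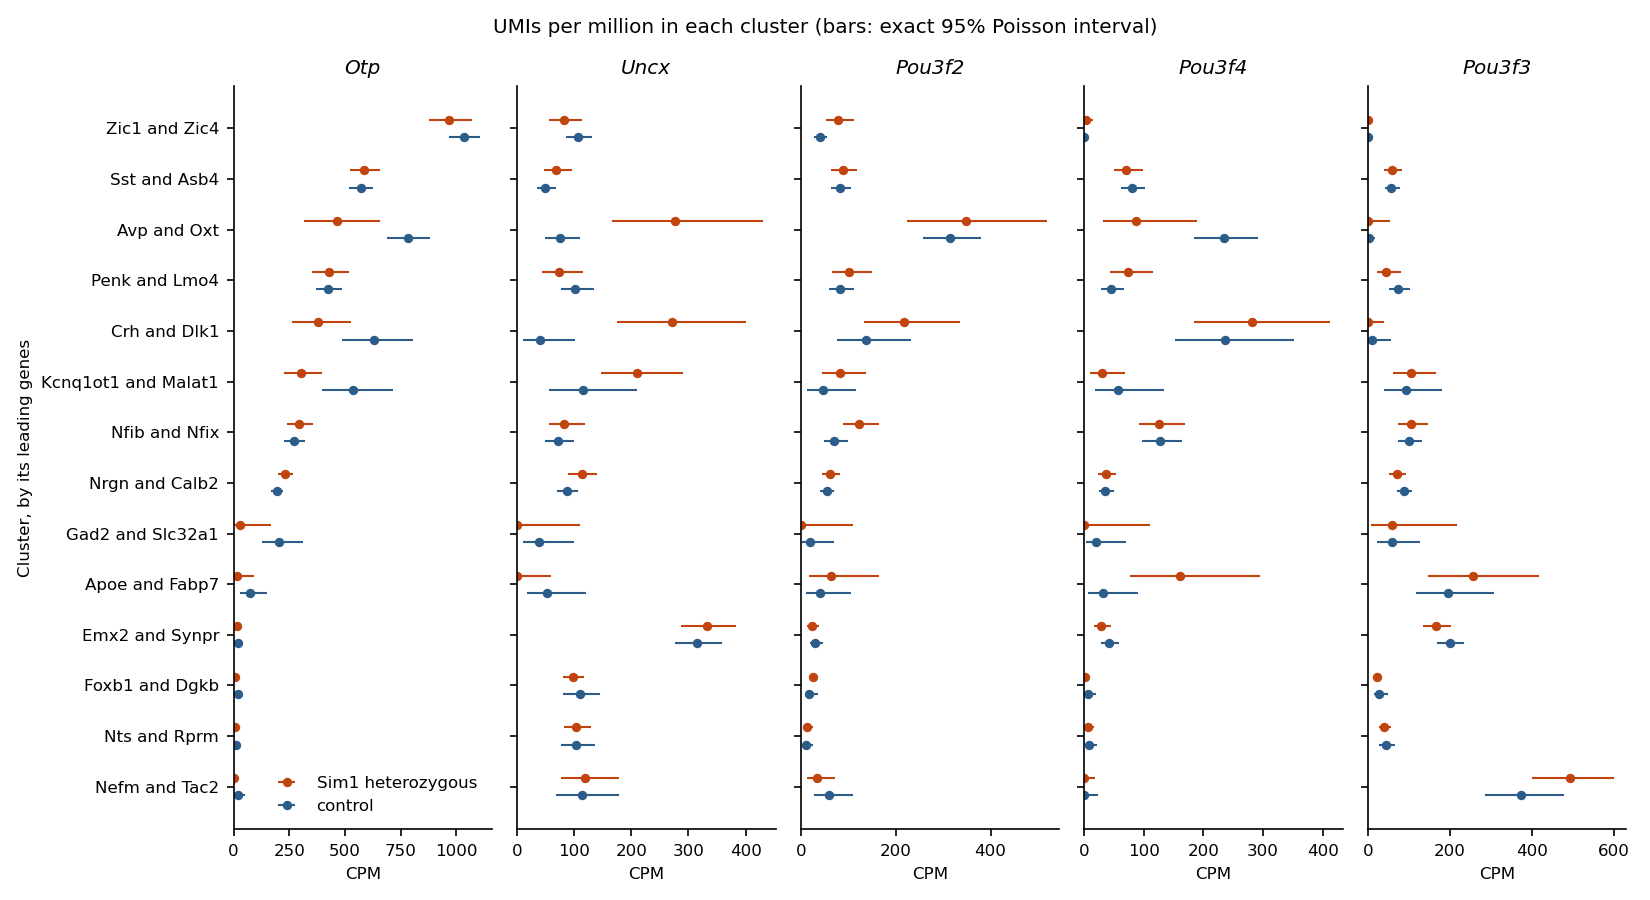
Level in CPM (horizontal axis) of 5 factors in the 14 clusters that held 20 cells or more of both libraries (vertical axis, ordered by Otp in the Sim1 heterozygous library), with the Sim1 heterozygous point above the control point and exact Poisson 95% intervals. Uncx is separate between libraries in the Avp and Oxt and the Crh and Dlk1 clusters, and Pou3f3 is highest in the Nefm and Tac2 cluster, where Otp is lowest in the Sim1 heterozygous library.

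Among all kept cells Otp and Pou3f2 were found together. Of cells with an Otp UMI, 22.2% of Sim1 heterozygous and 19.3% of control cells had Pou3f2, against 6.53% and 7.34% of cells without Otp. Thinned, the shares were 11.2% (Sim1Het) and 7.05% (control) with Otp and 4.86% (Sim1Het) and 3.62% (control) without. Pou3f4 was found in 56 of 432 (Sim1Het) and 111 of 817 (control) cells with Otp and in 91 of 2022 (Sim1Het) and 130 of 1989 (control) of those without. Thinned, the shares were 5.58% (Sim1Het) and 5.06% (control) with Otp and 3.14% (Sim1Het) and 4.48% (control) without, with intervals that overlap in both libraries. Pou3f4 was found in 14.9% (Sim1Het) and 19.7% (control) of cells with Pou3f2 and in 5.08% (Sim1Het) and 7.23% (control) of those without. Thinned, the shares were 8.74% (Sim1Het) and 6.96% (control) with Pou3f2, against 54 of 1738 (Sim1Het) and 114 of 2535 (control) cells without, with intervals that overlap in the control library.

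Otp and Pou3f3 were found together less often. Pou3f3 was found in 7.41% of Sim1 heterozygous and 6.73% of control cells with Otp, against 12.3% and 15.2% of those without. Thinned, the shares were 3.26% (Sim1Het) and 2.89% (control) with Otp and 5.41% (Sim1Het) and 7.82% (control) without, and only the control intervals stayed apart. Uncx went with Pou3f3, being found in 31.0% (Sim1Het) and 23.0% (control) of cells with Pou3f3 and 17.4% (Sim1Het) and 16.6% (control) of those without. Thinned, the shares were 16.8% (Sim1Het) and 8.89% (control) with Pou3f3 and 9.22% (Sim1Het) and 8.30% (control) without, with intervals that overlap in both libraries. For Otp and Uncx no difference was detectable, with Uncx in 18.8% (Sim1Het) and 16.8% (control) of cells with Otp and 19.0% (Sim1Het) and 17.6% (control) of those without.

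**Figure D5:**
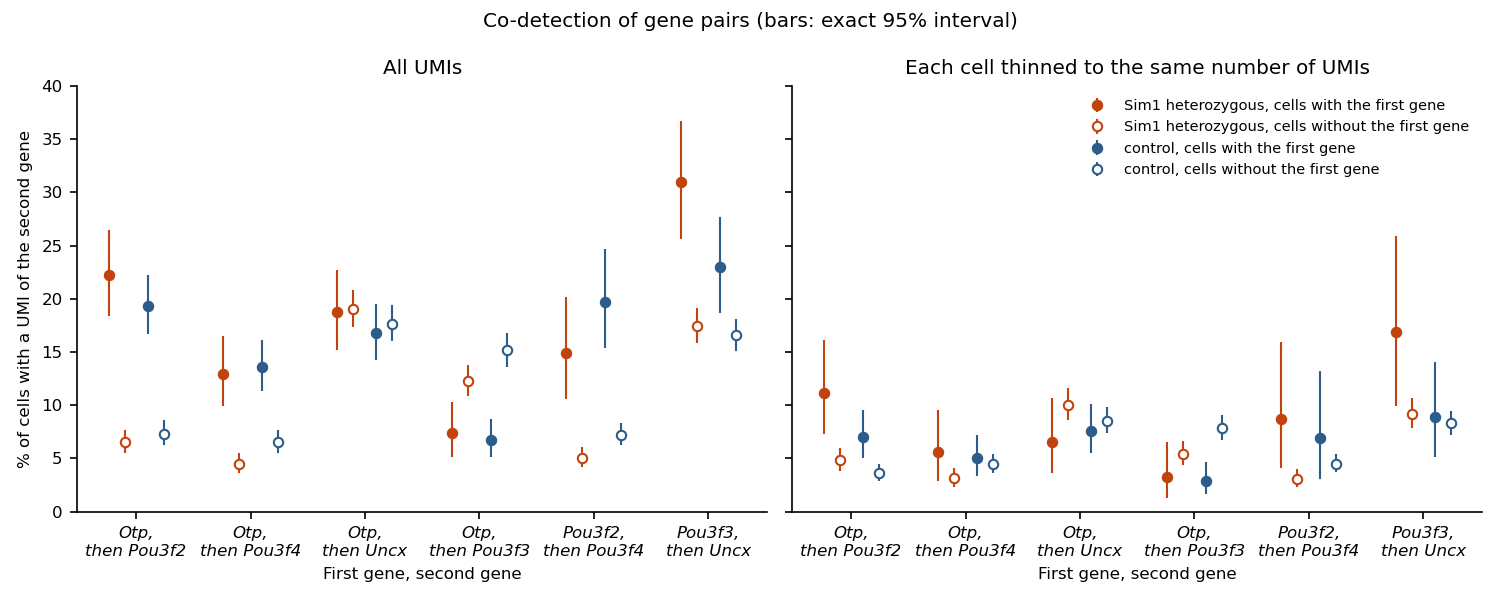
Percent of cells with a UMI of the second gene (vertical axis) among cells with (filled) and without (open) the first gene, for 6 gene pairs, unthinned (left panel) and thinned to 857 UMIs per cell (right panel), with exact 95% intervals and the Sim1 heterozygous library left of control. Pou3f2 is more often found in cells with Otp in both libraries and both panels, at 11.2% (Sim1Het) and 7.05% (control) after thinning.

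Inside the union of Oxt, Avp and Crh cells the pairs were less clear. Pou3f2 was found in 18 of 32 Sim1 heterozygous and 55 of 112 control cells with Otp (56.3% and 49.1%), and in 7 of 28 and 13 of 41 of those without. Thinned, the shares with Otp were 3 of 13 (Sim1Het) and 11 of 66 (control) and those without were 6 of 39 (Sim1Het) and 14 of 87 (control), so no pairing was detectable at that depth. The Uncx-positive cells of the union were as often Otp-positive as the rest, at 13 of 24 (Sim1Het) and 18 of 24 (control), against 19 of 36 (Sim1Het) and 94 of 129 (control). Pou3f4 was found in 3 of 24 Sim1 heterozygous and 14 of 24 control Uncx-positive cells, and in 11 of 36 and 43 of 129 Uncx-negative cells. No cell of the union had both Uncx and Pou3f3, but only 0 (Sim1Het) and 3 (control) of its cells had Pou3f3, so this pair could not be judged.

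Over all kept cells, 54.6% of Sim1 heterozygous and 44.0% of control cells had no UMI of any of the 6 factors, and 3.30% and 4.24% had 3 or more of them. In the union 21.7% (Sim1Het, 13 of 60) and 12.4% (control, 19 of 153) had none. In the Foxb1 gate of the Sim1 heterozygous library 66.7% had none. These shares count detection at the given depth and not absence of the gene.

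Cells were also split by transmitter genes, a split made after the data were seen, into glutamatergic cells (at least 2 UMIs of the vesicular glutamate transporters and 0 of 3 GABAergic genes) and GABAergic cells. The 873 Sim1 heterozygous and 904 control glutamatergic cells had Otp in 19.0% and 31.2% and Uncx in 26.1% and 22.7%, at median depths of 2848 and 2793.5 UMIs. The 21 (Sim1Het) and 32 (control) GABAergic cells had Otp in 2 (Sim1Het) and 4 (control) cells and Uncx in 0 (Sim1Het) and 1 (control) cell.

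By Pearson r of log2(CPM + 10) over the 14 clusters, taking the lower r of the libraries among 7467 genes with at least 100 UMIs in each, the gene most like Otp was Impact (r = 0.88 in Sim1Het and 0.87 in control clusters), then Dpp6 (0.81 in Sim1Het, 0.79 in control) and Pdzrn4 (0.78 and 0.80). In Sim1Het and control clusters, those most like Pou3f2 were Tshz1 (0.86 and 0.81), Fam46a (0.79 and 0.82) and Avp (0.77 and 0.77). The gene most like Pou3f4 was Pou3f2 (0.74 and 0.73). For Pou3f3 they were Sulf2 (0.73 and 0.75), Ccdc136 (0.74 and 0.72) and Pantr1 (0.69 and 0.92), and for Uncx Golga7b (0.71 and 0.67), RMST-1 (0.90 and 0.67) and Emc9 (0.82 and 0.66). Otp and Pou3f2 had r = 0.72 and 0.64, Otp and Pou3f3 -0.58 and -0.57, and Otp and Uncx 0.26 and -0.46. These are descriptions over clusters of the same cells, which share libraries and depth.

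A list of 6 other genes taken as regulators of the paraventricular nucleus (Sim1, Sim2, Arnt2, Nhlh2, Peg3 and Zfhx4) gives the setting. Not all mark its hormone cells. Of 5 tested in each library, 2 were at least 2-fold lower and 0 higher in the union than in ungated cells. The share of all tested genes that low was 9.39% (Sim1Het) and 8.69% (control). Zfhx4 was at 322 (Sim1Het) and 276 CPM (control) in Foxb1 cells and at 19.3 (Sim1Het) and 15.6 CPM (control) in the union. Between libraries, 0 of the 6 were past 1.5-fold in either direction over all kept cells, with a median log2 ratio of 0.17, against 0.04 over all genes tested. In ungated cells 0 of the 6 were higher and 1 was lower (Sim2, on 8 UMIs in Sim1Het and 23 in control cells), with a median of 0.28, against 0.04. In the union of Oxt, Avp and Crh cells 4 were tested, of which Arnt2 was higher (0.60, -0.66 to 1.64) and Sim1 lower (-0.64), with a median of 0.30, against 0.10.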

How the data were processed

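Per the labels' protocols, hypothalami were dissociated with papain, tdTomato-positive cells negative for Sytox blue were sorted, and Drop-seq 3′ libraries were made. The authors deposited UMI counts per gene and cell, not normalized, as 1 merged table and 1 table per library with the same counts. The submitters' processing notes name bcl2fastq, Picard, STAR 2.6.0b, Seurat 3 and mm10. The counter, annotation and barcode rule: not given in the sources used here. An unknown counting rule can shift 3′-end counts of overlapping genes.

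From these counts, cells with at least 300 genes and at most 20% mitochondrial UMIs were kept (Python 3.11.15, numpy 2.4.6, pandas 2.3.3, scipy 1.17.1). Gates used UMI minimums. Glia-gated cells had at least 3 of 12 glial genes and at least as many glial as neuronal genes detected. Levels are summed UMIs per 1000000 UMIs with exact Poisson intervals. Shares have exact Clopper-Pearson intervals. Log2 ratios, Sim1 heterozygous over control, add 1 UMI to each library and have exact conditional binomial intervals. Floors are 3 counts. UMIs, like all these counts, give counting error only. The background is the share of genes with at least 30 UMIs over the compared cells that were past 1.5-fold between libraries, or past 2-fold between a gate and ungated cells. No p-value was computed, since each genotype is 1 library. Clusters (scanpy 1.11.5, Leiden resolution 1, 30 components, 2000 variable genes, 20 neighbours) left out the 6 genes. The scripts were tested on simulated counts.

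The genes, gates and lists were chosen with earlier results of these data known. The named genes are the 6 factors, the gate genes, the 2 leading genes of each cluster and, per factor, the 3 genes most like it over clusters. Further gene lists (2) are not reported here. Alternatives changed the gene minimum, gate minimums, thinning, the CPM denominator, the pseudocount and the cluster resolution, or left out the top 2% of cells by UMIs. Leaving out those cells is not a doublet call.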

Additional observations from a re-analysis of the deposited data

Results flagged for a closer look

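The log2 ratio of Pou3f3, Sim1 heterozygous over control, was -0.91 in Foxb1-gated cells outside the Oxt, Avp and Crh gates and 0.38 in ungated cells, which stand out because the 2 intervals lie on opposite sides of 0. The levels in the whole Foxb1 gate were 49.0 CPM in the Sim1 heterozygous and 91.8 CPM in the control library, and those in ungated cells 107 CPM in the Sim1 heterozygous and 82.0 CPM in the control library. With 1 library per genotype the difference between these ratios was not tested.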

How the results depend on the processing

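No paired analysis was possible because each genotype is 1 library. With gates weighted equally, the library log2 ratio was -0.09 for Otp, 0.66 for Uncx, 0.11 for Pou3f2 and, reversed, 0.53 for Pou3f1. Outside the Foxb1 and glia gates, an alternative chosen after seeing the data, it was -0.27 for Otp, 0.16 for Pou3f2, 0.40 for Pou3f3 and -0.19 for Pou3f4. The log2 fold of Otp in Foxb1 over ungated cells was -5.23 in Sim1 heterozygous cells without the top 2% of cells by UMIs. With gate minimums doubled it was -3.55 and -5.11 in Sim1 heterozygous and control cells, and in control cells that of Uncx was 0.14 (-0.18 to 0.43) and that of Pou3f3 -0.21 (-0.63 to 0.16). Thinning to the lower quartile lowers detection by construction: the percent of Foxb1 cells with Otp was 0.52 in Sim1 heterozygous and 0.97 in control cells. The log2 ratio of the share with a second gene in cells with Otp over those without was then -0.62 for Uncx, 1.20 for Pou3f2 and 0.83 for Pou3f4 in Sim1 heterozygous cells and 0.18 for Pou3f4 in control cells. That for Pou3f4 by Pou3f2 was 0.63 in control cells and that for Otp by Foxb1 -5.48 in Sim1 heterozygous cells. Thinned to the median, that for Pou3f3 by Otp was -1.90 in Sim1 heterozygous cells. Reversed ratios were -0.07 for Pou3f3 by Pou3f1 in control cells (thinned to the median), and -1.75 and -0.34 for Pou3f4 by Pou3f3 in Sim1 heterozygous cells (thinned to the lower quartile and to the median). Except for thinning, the cause was not tested. In the union of Oxt, Avp and Crh cells, the 8 alternatives per gene, chosen after seeing the data, kept the sign of each ratio, with Uncx between 1.64 and 2.04, Otp between -0.44 and -0.83, Pou3f2 between 0.02 and 0.45 and Pou3f4 between -0.21 and -0.76. The 0.02 (clusters in place of gates) is above 0 through the pseudocount alone, at 273.1 (Sim1Het) and 273.5 CPM (control). Without the low-count filter, 16.7% of 24793 genes were past 1.5-fold upwards and 17.2% downwards. Pools of pups, sexes and handling cannot be told apart from genotype, and gates of under 20 cells limit every share in them.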
